A study of Mus musculus with 45 samples.

Results

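The transcription factors and cofactors of B cell identity Pax5, Ebf1, Mef2b, Mef2c, Spib, Irf8, Bach2, Pou2af1, Foxp1 and Tcf3 were followed through RNA-sequencing of lymphocytes sorted from mouse draining lymph nodes. They were chosen by symbol, and all 10 were found among the 55450 genes of the count table. The rule itself used only the symbols, although earlier results of these data were known when the genes were chosen.

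B cell fate is set in layers. Tcf3 (E2A) and Ebf1 open the B lineage program, and Pax5 then holds the cell in it by switching on genes of the B cell receptor and switching off genes of other lineages. Spib and Irf8 act with other Ets and IRF proteins at B cell enhancers, Pou2af1 (OCA-B, OBF-1) binds the octamer factors Oct1 and Oct2 as a coactivator and is needed for germinal centers (GC), Mef2b and Mef2c are MADS-box factors downstream of antigen receptor signals, and Bach2 and Foxp1 restrain differentiation. Several of them are also used outside B cells: Irf8 in myeloid and dendritic cells, Bach2, Foxp1 and Tcf3 in naïve T cells, and Pou2af1 in activated CD4+ T cells.

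The study asked how loss of sphingosine-1-phosphate receptor 4 (S1PR4) affects the GC reaction. S1PR4-/- mice of strain B6.129P2-S1pr4tm1Dgen/J, backcrossed to C57/BL6 for at least 10 generations, were compared with WT littermates. The deletion is carried by the whole animal, so every cell of an S1PR4-/- mouse lacks the receptor, and both genotypes were male and female mice of 8 to 12 weeks. All mice were immunized in the hind footpad with 50 µg of ovalbumin and 5 µg of lipopolysaccharide in 20 µL of an incomplete Freund's adjuvant emulsion, and the draining popliteal lymph nodes were sorted. T follicular helper (TFH) cells (TCRβ+ CD4+ PD1+ CXCR5+) and non-TFH CD4+ T cells (PD1- CXCR5-) were taken at day 6, and GC B cells (B220+ GL7+ Fas+) and non-GC B cells (GL7- Fas-) at day 9. Each of the 4 populations had 6 samples per genotype, except that non-GC B cells had 5 WT and 4 S1PR4-/- samples, 45 in all. The study's methods give 6 mice per genotype for the sorts, in number equal to the samples of most groups, but the labels tie no sample to a mouse, so the p-values measure the spread between these samples.

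Libraries held 26299429 to 45548215 expected counts, with a median of 34188292. S1pr4 lay between 0 and 1.02 counts scaled to library size (CPM) in the 22 S1PR4-/- samples and between 17.1 and 164 CPM in the 23 WT samples, so the genotype labels held in every library. The summed level of 10 B cell markers was 10359 to 26181 CPM in the B cell samples and 901 to 1465 CPM in the T cell samples. The summed level of 10 T cell markers was 67.5 to 204 CPM and 7576 to 10430 CPM, respectively. In all the comparisons below, fewer cells of a type and less RNA per cell cannot be told apart, because each library is a bulk of sorted cells.

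**Figure D1:**
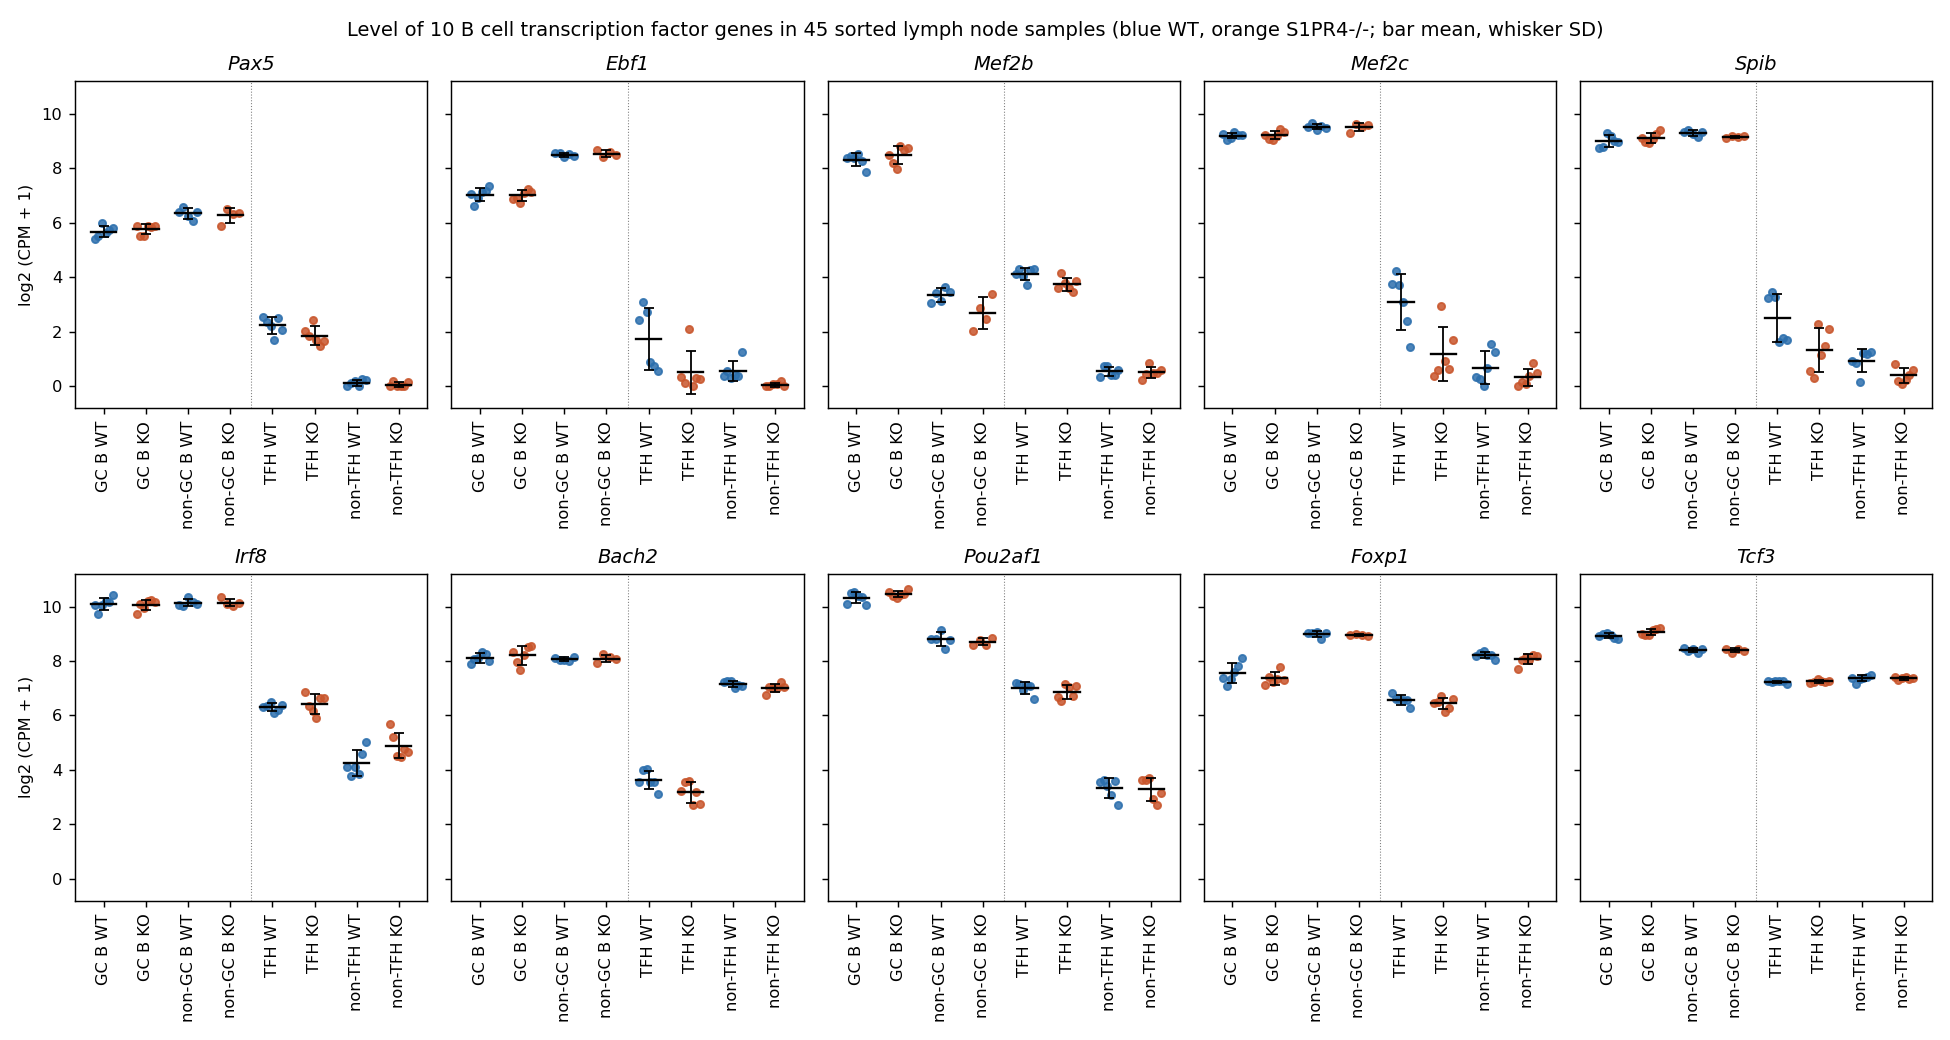
Level of each of the 10 genes in every sample, as log2(CPM + 1), in 10 panels of 8 groups. Blue points are WT and orange points S1PR4-/- samples, with the mean and SD of each group beside them. Pax5, Ebf1, Mef2c and Spib are high in all B cell groups and near the bottom in T cell groups, Bach2 and Foxp1 are lower in TFH than in non-TFH cells, and Mef2b stands out in GC B cells.

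All 10 genes were detected in every B cell sample. Compared per kb of exonic length, Pou2af1 had the highest mean level in WT GC B cells, 506 CPM per kb, followed by Mef2b at 229, Spib at 180, Irf8 at 158 and Tcf3 at 120 CPM per kb. Pax5 had the lowest at 5.71 CPM per kb, beside 13.5 for Ebf1 and 13.9 for Foxp1. In WT non-GC B cells the order on the same scale began with Spib at 219 and Pou2af1 at 176 CPM per kb, and Mef2b was last at 6.60. Thus the lowest of the 10 outside the GC was the second highest inside it.

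The first comparison asked which of the factors differ with the GC state within B cells. In WT mice, 6 of the 10 changed (FDR under 0.05 and a fold change over 1.5), while 47.8% of the 13313 genes tested did so. Mef2b, Pou2af1 and Tcf3 were higher in GC B cells (24.8% of all genes were), and Ebf1, Foxp1 and Pax5 were lower (23.1% of all genes were). In S1PR4-/- mice, 5 of the 10 changed against 48.2% of all genes, with the same 3 genes higher (25.3% of all genes) and with Ebf1 and Foxp1 lower (22.9% of all genes). The share of the 10 that changed was thus near that of all genes, and the direction was mixed: the median log2 fold change of the 10 was -0.09 in WT and 0.01 in S1PR4-/- mice, beside 0.002 and 0.03 for all genes.

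Mef2b, which binds MEF2 sites and is a frequent target of mutation in GC lymphomas, showed the largest difference of the 10. It lies at chr8:70139711-70167488 on the + strand (mm10). In WT GC B cells its level ran from 234 CPM through a median of 332 to 369 CPM. The 5 WT non-GC B samples had 7.25, 9.73, 7.72, 11.6 and 10.1 CPM. The groups were far apart. The log2 fold change was 5.18 ± 0.17 (SE, adjusted p = 5.56e-10 by edgeR's quasi-likelihood test), a 36.3-fold difference. S1PR4-/- GC B cells had 253 to 446 CPM (median 382) and the 4 S1PR4-/- non-GC B samples 3.04, 6.38, 4.47 and 9.47 CPM, a log2 fold change of 6.02 ± 0.36 (adjusted p = 1.19e-07). The lowest WT value of Mef2b among GC B samples, replicate 6, came with the lowest summed level of 8 GC B cell markers (1554 CPM, the others 1792 to 2495) and the highest sum of 6 follicular B cell markers (2629 CPM, the others 894 to 1755). The part of GC purity in that sample's value was not tested.

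Of the 1404 exonic bases annotated to Mef2b, 62 (4.42%) are shared with Borcs8, a lysosome positioning subunit gene that overlaps it on the same strand, so reads there could be assigned to either. Borcs8 rose by less, from 14.1 ± 1.34 CPM in WT non-GC B to 30.8 ± 3.17 CPM in WT GC B cells (mean ± SD, n = 5 and 6). In non-TFH cells Borcs8 stood at 14.9 CPM while Mef2b was at 0.465 CPM.

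Pou2af1, at chr9:51213708-51240080 on the + strand, was the second to rise. It ranged from 1070 to 1488 CPM (median 1323) in WT GC B cells, and the WT non-GC B samples had 449, 452, 563, 343 and 433 CPM. Every GC B sample lay above every non-GC B sample. This was a log2 fold change of 1.59 ± 0.13 (adjusted p = 4.66e-07). The S1PR4-/- samples differed by 1.82 ± 0.10 (adjusted p = 5.55e-08), from 387, 438, 387 and 459 CPM in non-GC B to between 1272 and 1615 CPM in GC B cells.

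The promoters of these genes are shown because Pou2af1 acts through the octamer motif and because Mef2b and Pou2af1 were higher in both GC populations while Foxp1 was lower in both. RefSeq sequences of GRCm38.p6 covering 250 bases before the start site were searched on both strands for the octamer ATGCAAAT and for the E-box CAGGTG, which E proteins such as Tcf3 bind. Of 16 promoters of the 10 genes, 1 held the octamer, that of Mef2b at 85 bases before the start, and 1.60% of 32851 promoters of the same length held it. The E-box was found in 2 of the 16, 1 of the 3 of Foxp1 and 1 of the 2 of Irf8, and in 17.2% of all promoters. The EBF motif (TCCC and GGGA with any 2 bases between), the MEF2 motif (CTA and TAG with any 4 bases between) and the Ets motif GAGGAAGT were found in none of the 16 and in 0.779%, 3.20% and 2.44% of all promoters. A match describes these letters only and is no evidence of binding. The promoters are given 5′ to 3′ on the strand of the gene, with motif letters in capitals, for Mef2b (chr8:70152511-70152760, + strand), Pou2af1 (chr9:51213440-51213689, + strand, no match) and Foxp1 (chr6:99028299-99028548, - strand, with the E-box read from the opposite strand):
Mef2b: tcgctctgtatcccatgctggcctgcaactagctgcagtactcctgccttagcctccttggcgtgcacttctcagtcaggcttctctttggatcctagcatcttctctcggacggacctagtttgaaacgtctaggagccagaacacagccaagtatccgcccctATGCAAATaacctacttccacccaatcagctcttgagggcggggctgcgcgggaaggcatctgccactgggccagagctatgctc
Pou2af1: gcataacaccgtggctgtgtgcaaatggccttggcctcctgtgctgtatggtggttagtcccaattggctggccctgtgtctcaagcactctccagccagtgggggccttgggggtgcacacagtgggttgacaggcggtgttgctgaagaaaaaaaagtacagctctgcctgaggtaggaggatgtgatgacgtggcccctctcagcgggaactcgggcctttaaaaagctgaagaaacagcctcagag
Foxp1: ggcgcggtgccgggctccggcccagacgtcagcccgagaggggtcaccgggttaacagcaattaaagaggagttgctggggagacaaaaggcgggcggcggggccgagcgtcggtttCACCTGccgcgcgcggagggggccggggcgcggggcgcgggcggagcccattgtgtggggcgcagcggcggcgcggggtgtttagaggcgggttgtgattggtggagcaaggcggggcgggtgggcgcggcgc

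Tcf3, at chr10:80409514-80433647 on the - strand, encodes the E2A proteins. It had 450 to 521 CPM (median 489) in WT GC B cells and 354, 332, 346, 315 and 345 CPM in WT non-GC B cells. The groups were close but did not overlap. The log2 fold change of 0.59 ± 0.06 (adjusted p = 4.66e-06) was just past the limit of 1.5-fold, at 1.504-fold, and fell under it with total counts (0.49), with all 8 groups in 1 fit (0.52) and without GC B replicate 1, 2 or 3 or non-GC B replicate 2 or 4 (0.57 to 0.58). The S1PR4-/- difference was 0.74 ± 0.08 (adjusted p = 9.29e-06). Tcf3 lies 1064 kb from S1pr4 on the same chromosome, and its level did not pass the test between genotypes in any population.

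Ebf1, at chr11:44617317-45008091 on the + strand, had the lowest log2 fold change of the 10 in WT, and Foxp1 in S1PR4-/- mice. WT GC B samples ran from 98.0 to 161 CPM (median 136), against 376, 374, 337, 371 and 350 CPM in WT non-GC B samples. The level in GC B cells was under that of every non-GC B sample. GC B cells differed on the log2 scale by -1.39 ± 0.10 (adjusted p = 1.38e-07), and -1.48 ± 0.11 (adjusted p = 4.67e-07) in S1PR4-/- mice, where GC B cells had 104 to 152 CPM and non-GC B cells 409, 337, 390 and 357 CPM.

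Pax5, at chr4:44524757-44710487 on the - strand, the commitment factor of the lineage, was lower by less. Its level was 40.9 to 62.0 CPM (median 50.3) in WT GC B cells and 83.1, 95.1, 74.5, 66.2 and 84.2 CPM in WT non-GC B cells. The highest GC B sample was close to the lowest non-GC B sample. The log2 fold change was -0.61 ± 0.12 (adjusted p = 0.000519), 1.52-fold, and it fell under the limit of 1.5-fold without GC B replicate 1, 2 or 4 or non-GC B replicate 2 (-0.55 to -0.57). For S1PR4-/- cells it was -0.47 ± 0.13 (adjusted p = 0.00865), under that limit, from 58.5, 90.2, 79.5 and 81.0 CPM to between 44.7 and 58.4 CPM.

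Foxp1, a forkhead repressor that holds B cells in the follicular state, lies at chr6:98925338-99522721 on the - strand. In WT it had 134 to 274 CPM (median 178) in GC B cells and 525, 516, 538, 442 and 521 CPM in non-GC B cells. The highest GC B value was that of replicate 6, the sample with the most follicular marker RNA. WT GC B replicates 1 to 3 had 166, 134 and 160 CPM, and replicates 4 to 6 had 191, 226 and 274 CPM. The follicular marker sums split the same way, 894 to 1535 against 1599 to 2629 CPM, and Foxp1 in S1PR4-/- GC B cells did not. The link was not tested. The log2 fold change in WT was -1.34 ± 0.15 (adjusted p = 5.65e-06). Among S1PR4-/- samples it was -1.53 ± 0.11 (adjusted p = 4.93e-07), from 493, 508, 498 and 485 CPM to between 137 and 218 CPM.

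The other 4 genes stayed within 1.5-fold of their non-GC level. Mef2c, a MADS-box factor of B cell survival and proliferation after antigen receptor engagement, ran from 530 to 636 CPM (median 599) in WT GC B cells and was at 737, 801, 680, 747 and 713 CPM in non-GC B cells. These groups did not overlap, and the log2 fold change of -0.26 ± 0.06 passed the FDR (adjusted p = 0.00299) but not the fold limit. The S1PR4-/- groups overlapped (-0.23 ± 0.10, adjusted p = 0.0509). Spib, an Ets factor related to PU.1, had 425 to 627 CPM in WT GC B cells and 568 to 672 CPM in non-GC B cells (-0.22 ± 0.10, adjusted p = 0.0666). Irf8 and Bach2 overlapped entirely in range: Irf8 was at 847 to 1356 CPM inside and 1031 to 1296 CPM outside the GC (0.04, 95% confidence interval -0.19 to 0.27), and Bach2 at 238 to 325 and 254 to 285 CPM (0.11, interval -0.06 to 0.29). The adjusted p-values of Irf8 and Bach2 were 0.739 and 0.234. Among S1PR4-/- GC B cells, replicate 3 had the lowest Bach2 (202 CPM) and the lowest Mef2b (253 CPM), together with the highest summed level of 8 plasma cell markers (17943 CPM, the others 2060 to 8503). That sum split by replicate number: 5701, 8503 and 17943 CPM in replicates 1 to 3, and 2060, 2468 and 2090 CPM in replicates 4 to 6. Mef2b (253 to 357 against 407 to 446 CPM) and Tcf3 (493 to 506 against 564 to 593 CPM) split likewise, and Bach2 did not. In WT GC B cells the plasma sums split too (5092 to 8885 against 4043 to 4568 CPM), but Mef2b, Tcf3 and Bach2 did not. The labels do not say what replicate numbers mark. The part of plasma cells in these libraries was not tested.

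**Figure D2:**
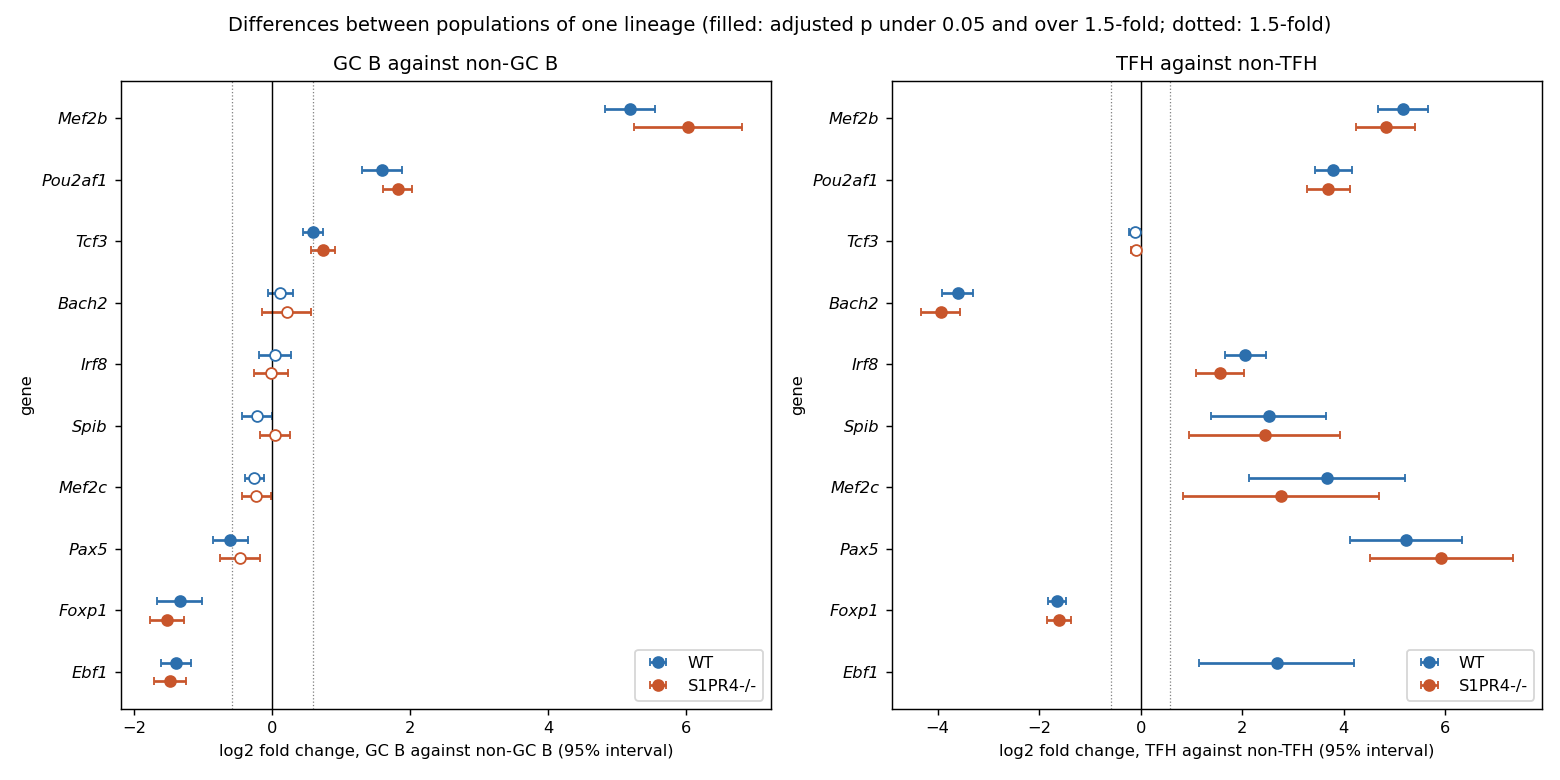
Log2 fold change with 95% confidence interval of each gene, GC B over non-GC B cells and TFH over non-TFH cells, in WT (blue) and S1PR4-/- mice (orange). Filled symbols passed an FDR of 0.05 and a fold change of 1.5. Mef2b and Pou2af1 were higher and Foxp1 lower in both populations, while Pax5 was lower in GC B and higher in TFH cells and Bach2 was lower in TFH cells and within 1.5-fold of its non-GC level in GC B cells.

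The second comparison set TFH cells against non-TFH CD4+ T cells of the same day. In WT mice 9 of the 10 changed, where 43.2% of 13481 genes did: 7 were higher (22.8% of all genes) and 2 lower (20.4% of all genes). In S1PR4-/- mice 8 of the 9 that could be tested changed, against 43.4% of all genes, with 6 higher (22.3% of all genes) and 2 lower (21.1% of all genes). Ebf1 had too few counts there to be tested. B cell genes in sorted T cells may come from B cells carried over in the sort, so the levels were read beside those of 10 B cell markers, among them Cd79a, Cd79b, Ms4a1, Cd22, Blk, Fcrla, Ighm, Ighd and Cr2. Their mean log2 CPM, the B cell marker score, was 5.20 to 5.64 in WT TFH replicates 1, 2 and 3 and 2.20 to 3.41 in replicates 4 to 6. It was 4.62 in S1PR4-/- TFH replicate 3 and -0.02 to 2.08 in the other S1PR4-/- TFH samples. In non-TFH cells it was 0.59 to 3.02 in WT and -0.38 to 1.28 in S1PR4-/- samples. All 10 markers had a mean of at least 1 CPM in WT TFH cells, 8 in S1PR4-/- TFH, 7 in WT non-TFH and 4 in S1PR4-/- non-TFH cells, and none was at 0 in a whole group.

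Mef2b and Pou2af1 were higher in TFH cells in both genotypes and varied little between libraries. Mef2b had 12.1 to 18.5 CPM (median 17.3) in WT TFH and 0.255 to 0.671 CPM (median 0.431) in WT non-TFH cells. All TFH samples lay far above all non-TFH samples. TFH cells exceeded non-TFH cells by 5.16 ± 0.23 on the log2 scale (adjusted p = 1.52e-10), and 4.83 ± 0.27 (adjusted p = 2.65e-09) in S1PR4-/- mice. Its level in WT TFH cells was 179% of that in WT non-GC B cells, above the percentage of every B cell marker. Against WT GC B cells, where Mef2b is abundant, it was 5.15%, below Ighd (5.87%), Cd22 (13.9%) and Ighm (23.7%) and above the other 7 markers. In S1PR4-/- mice it was 3.46% of the GC B level, below Cd22 (15.8%) and Ighm (28.1%).

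Pou2af1 ran from 96.9 to 145 CPM (median 136) in WT TFH cells and from 5.61 to 11.4 CPM (median 10.3) in WT non-TFH cells. The ranges did not touch. On the log2 scale TFH cells were higher by 3.79 ± 0.17 (adjusted p = 1.37e-10) in WT and 3.70 ± 0.20 (adjusted p = 1.65e-09) in S1PR4-/- mice. The TFH level was 28.8% of the non-GC B level in WT and 28.1% in S1PR4-/- mice, against 15.1% and 12.8% for Ighm, the marker with the highest percentage. Against GC B cells it was 10.0% and 8.32%, below Cd22 (13.9% and 15.8%) and Ighm (23.7% and 28.1%).

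Pax5 was low but present in all 12 TFH libraries, with 66 to 179 expected counts each. WT TFH samples had 2.23 to 4.87 CPM (median 3.84) and WT non-TFH samples 0 to 0.192 CPM (median 0.119). Every TFH value was above every non-TFH value, and the log2 fold change was 5.23 ± 0.52 (adjusted p = 4.44e-07). S1PR4-/- TFH cells had 1.80 to 4.42 CPM and non-TFH cells 0 to 0.151 CPM (5.92 ± 0.66, adjusted p = 1.94e-06). There 4 of the 6 non-TFH libraries held no Pax5 count and replicates 2 and 6 held 5 and 4, so the size of this fold rests on few counts. The WT TFH level was 4.69% of the non-GC B level, and the S1PR4-/- level 3.51%, while the medians of the 10 markers were 1.10% and 0.197%. Among the markers, Ighm (15.1% and 12.8%) and Cd22 (7.60% and 8.18%) stood higher than Pax5, and the other 8 stood between 0.605% and 1.27% in WT and between 0.146% and 0.266% in S1PR4-/- TFH cells. Against GC B cells Pax5 stood at 7.49% and 5.07%, again below Cd22 and Ighm.

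Irf8 was higher in TFH cells too, with 67.3 to 89.9 CPM (median 79.6) against 12.5 to 31.6 CPM (median 16.2) in WT. The groups were separate, and the log2 fold change was 2.06 ± 0.19 (adjusted p = 2.38e-07). Without S1PR4 it was 1.56 ± 0.22 (adjusted p = 2.05e-05), from 21.5 to 50.8 CPM in non-TFH to 58.9 to 116 CPM in TFH cells. The summed level of 10 myeloid and dendritic cell markers moved the same way, with a median of 126 CPM in WT TFH against 64.0 CPM in WT non-TFH cells and of 120.0 against 63.0 CPM in S1PR4-/- cells, and its part in the Irf8 difference was not tested. One S1PR4-/- TFH library, replicate 6, had a sum of these markers of 537 CPM (the other TFH samples 66.2 to 144), and its Irf8 level was 99.5 CPM, inside the range of its group. The highest non-TFH value, 50.8 CPM in S1PR4-/- replicate 1, came with the highest TFH marker sum of the non-TFH samples (470 CPM, the others 205 to 352). Neither link was tested.

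Ebf1, Mef2c and Spib were highest in the libraries that held the most B cell marker RNA. Ebf1 had 4.41, 7.57 and 5.66 CPM in WT TFH replicates 1 to 3 and 0.842, 0.661 and 0.461 CPM in replicates 4 to 6, and Mef2c had 12.6, 17.9 and 12.0 against 7.44, 4.26 and 1.73 CPM. Spib had 8.32, 10.0 and 8.60 against 2.05, 2.43 and 2.22 CPM. For each of these genes the 3 libraries with a marker score over 5 stood above the other 3. In S1PR4-/- TFH cells, replicate 3 likewise held the highest Ebf1 (3.27 CPM), Mef2c (6.79 CPM) and Spib (3.92 CPM), and the other 5 libraries had 0 to 12 expected counts of Ebf1.

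Against WT non-TFH cells (0.233 to 1.39 CPM of Ebf1, 0 to 1.92 of Mef2c and 0.116 to 1.36 of Spib), the log2 fold changes in WT were 2.68 ± 0.71 for Ebf1 (adjusted p = 0.00384), 3.66 ± 0.72 for Mef2c (adjusted p = 0.000374) and 2.52 ± 0.53 for Spib (adjusted p = 0.000637). The TFH and non-TFH groups overlapped for Ebf1 and Mef2c. Between S1PR4-/- groups Mef2c (2.76 ± 0.90, adjusted p = 0.0136) and Spib (2.44 ± 0.69, adjusted p = 0.00594) passed, and in both the groups overlapped. The WT TFH levels of Ebf1 (0.903%), Mef2c (1.27%) and Spib (0.892%) were close to the median marker percentage of 1.10%. In S1PR4-/- TFH cells Ebf1 (0.180%) and Mef2c (0.255%) lay near the median of 0.197%. Spib (0.320%) stood at 1.63 times that median, above every marker but Ighm (12.8%) and Cd22 (8.18%).

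**Figure D3:**
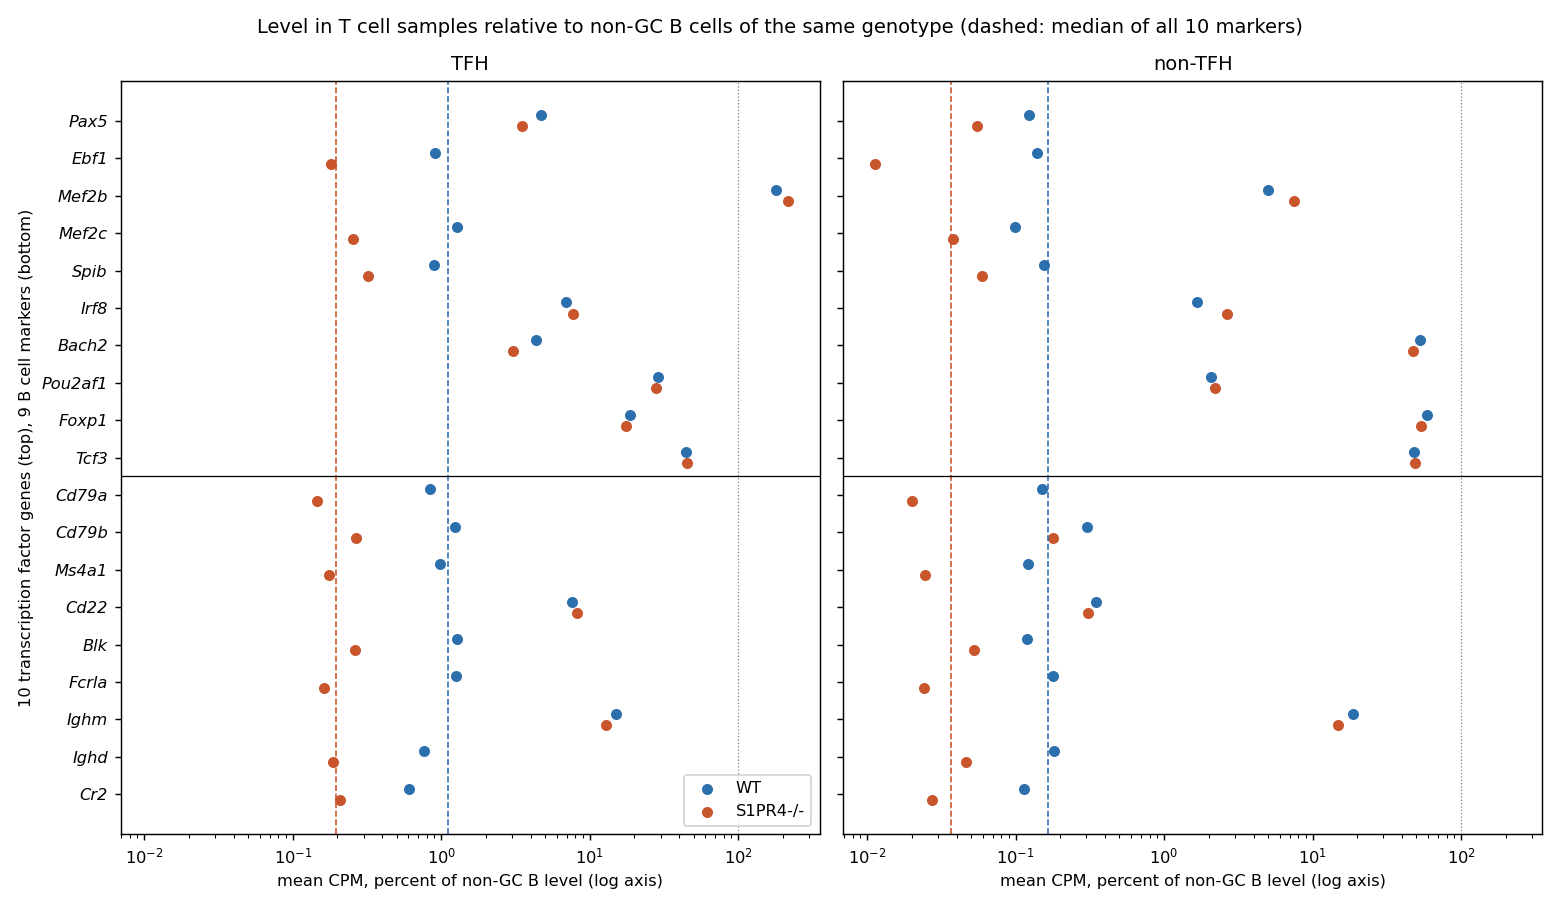
Mean CPM in each T cell group as a percentage of the mean CPM in non-GC B cells of the same genotype, on a log axis, for the 10 genes (upper rows) and 9 of the 10 B cell markers (lower rows). Dashed lines mark the median of all 10 markers. In TFH cells Ebf1, Mef2c and Spib sit nearest the marker median, with S1PR4-/- Spib (0.320%) to its right. Pax5, Irf8, Bach2, Foxp1, Pou2af1, Tcf3 and Mef2b sit farther to the right.

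The B cell marker score itself differed between TFH and non-TFH cells, with some overlap, so a fit with it cannot fully separate score and population. When it was included as a covariate, Spib no longer passed in WT (0.71, adjusted p = 0.201) and Ebf1 changed sign (-0.26, adjusted p = 0.755). In S1PR4-/- mice Mef2c (0.68, adjusted p = 0.287) and Spib (1.15, adjusted p = 0.192) no longer passed. The log2 fold changes of Pax5 (4.79 in WT and 5.75 in S1PR4-/- mice), Mef2b (5.23 and 4.83), Pou2af1 (3.83 and 3.64) and Irf8 (1.73 and 1.79) passed in that fit. The 4 TFH samples with a score over 4 were replicates 1 to 3 in WT and replicate 3 in S1PR4-/- mice. A further fit of each genotype, added after the data had been seen, left out these samples of that genotype. In WT it set TFH replicates 4 to 6 against all non-TFH samples, so replicate number was not balanced between the populations. The score of WT non-TFH samples was 0.59 to 0.91 in replicates 1 to 3 and 2.31 to 3.02 in replicates 4 to 6. In the fit without these samples Pax5 (5.08 and 5.73), Mef2b (5.14 and 4.82), Pou2af1 (3.74 and 3.63) and Irf8 (1.98 and 1.61) passed again. Ebf1 (0.38, adjusted p = 0.593) and Spib (1.21, adjusted p = 0.0563) did not pass in WT, and Mef2c did not pass in S1PR4-/- mice (1.67, adjusted p = 0.0660). WT Mef2c passed in both fits, with the covariate (1.55, adjusted p = 0.0138) and without the samples of high score (2.62, adjusted p = 0.0176). S1PR4-/- Spib passed without them (2.06, adjusted p = 0.0165).

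**Figure D4:**
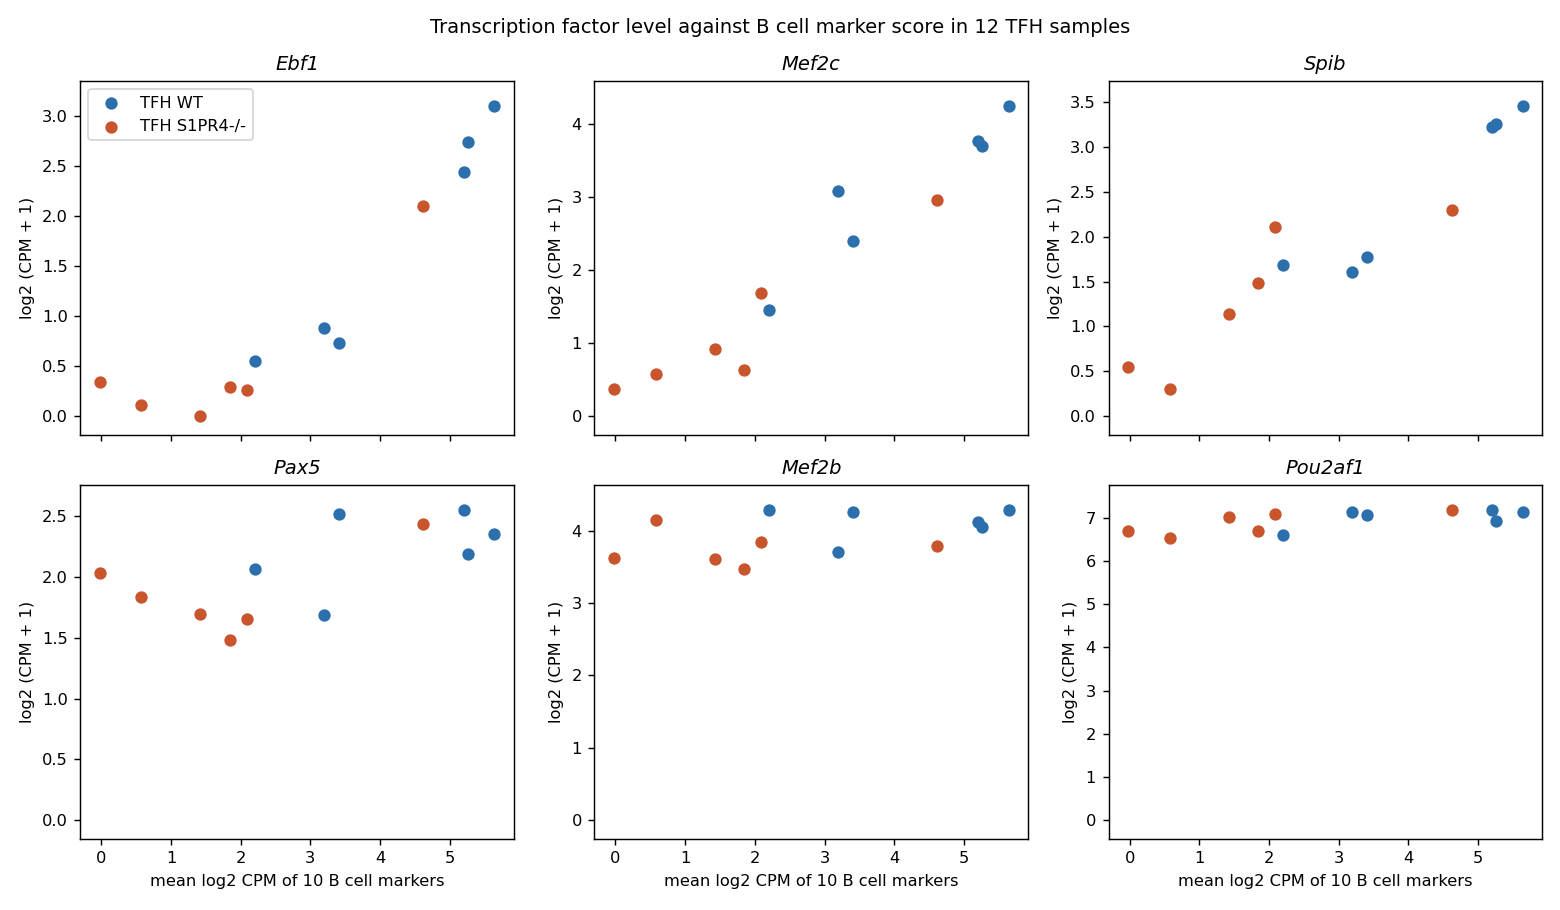
Level of 6 genes, as log2(CPM + 1), against the B cell marker score in the 12 TFH samples, WT in blue and S1PR4-/- in orange. Ebf1 and Spib are highest in the 4 samples with a score over 4, Mef2c is highest in the 3 WT samples with a score over 5, and Pax5 stays between 1.80 and 4.87 CPM and Mef2b between 10.1 and 18.5 CPM over all 12.

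Over the 40 pairs of a gene and a T cell group, exact permutation tests of the correlation with the score gave no adjusted p under 0.0556. With 6 samples per group the exact p has a floor, and after adjustment over 40 pairs no single pair could pass alone. The tests therefore cannot show that a correlation is absent. Pooled coefficients are not given for TFH cells, where the samples fell into separate clusters of the score.

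Bach2 and Foxp1 were lower in TFH cells. Bach2, at chr4:32238804-32586108 on the + strand, a repressor that keeps lymphocytes from effector differentiation, had 7.60 to 15.4 CPM (median 10.9) in WT TFH and 129 to 154 CPM (median 143) in WT non-TFH cells. Every TFH library was below every non-TFH library. The difference on the log2 scale was -3.61 ± 0.14 (adjusted p = 6.29e-11) in WT and -3.94 ± 0.18 (adjusted p = 3.95e-10) in S1PR4-/- mice. Foxp1 had 75.9 to 112 CPM (median 94.8) in WT TFH and 261 to 331 CPM (median 298) in WT non-TFH cells, a log2 fold change of -1.65 ± 0.08 (adjusted p = 5.35e-10). It was -1.61 ± 0.11 (adjusted p = 1.57e-08) in S1PR4-/- mice. Tcf3 was nearly level, at 143 to 154 CPM in WT TFH and 142 to 177 CPM in WT non-TFH cells (-0.12 ± 0.06, adjusted p = 0.0700; -0.10 ± 0.04, adjusted p = 0.0530 in S1PR4-/- mice).

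Whether the GC population differed from its non-GC counterpart in the same way in B and T cells was tested in WT by an interaction term. The difference passed for 8 of the 10 genes, against 41.6% of 15118 genes tested (20.3% positive and 21.3% negative). It was negative, that is, the shift was lower in B than in T cells, for Pax5 (-5.91 ± 0.40, adjusted p = 8.27e-11), Ebf1 (-4.13 ± 0.71, adjusted p = 5.77e-05), Mef2c (-3.97 ± 0.65, adjusted p = 3.20e-05), Spib (-2.79 ± 0.52, adjusted p = 0.000140), Pou2af1 (-2.27 ± 0.21, adjusted p = 1.45e-08) and Irf8 (-2.08 ± 0.24, adjusted p = 2.71e-07). It was positive for Bach2 (3.66 ± 0.17, adjusted p = 3.97e-13) and Tcf3 (0.64 ± 0.08, adjusted p = 4.75e-07). The difference did not pass for Mef2b (-0.05, 95% confidence interval -0.49 to 0.40) or Foxp1 (0.24, interval -0.13 to 0.62). Lineage and day of sort cannot be told apart in this test. Without the WT TFH samples of high marker score, replicates 1 to 3, the same count of 8 passed. The other WT groups kept these replicate numbers in that fit. Ebf1 was then at -1.81, Mef2c at -2.89 and Spib at -1.43.

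Between lineages, all 10 genes were higher in B cells. WT GC B cells exceeded WT TFH cells in 10 of 10 (44.3% of all genes changed and 20.1% were higher), from 1.03 on the log2 scale for Foxp1 and 1.70 for Tcf3 to 5.99 for Mef2c and 6.54 for Spib. WT non-GC B cells exceeded WT non-TFH cells in 10 of 10 (38.8% of all genes changed and 19.7% were higher), from 0.83 for Foxp1, 0.97 for Bach2 and 1.11 for Tcf3 to 9.53 for Ebf1, 9.71 for Pax5 and 10.01 for Mef2c. In non-TFH cells Bach2, Foxp1 and Tcf3 thus stood at 53.3%, 58.5% and 48.4% of the WT non-GC B level, above each B cell marker, while Pax5, Ebf1, Mef2c and Spib stood at 0.0995% to 0.155%, beside a marker median of 0.165%. These contrasts also combine lineage with day of sort.

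The study's main question concerns genotype. None of the 10 genes passed between S1PR4-/- and WT samples in any of the 4 populations by edgeR's quasi-likelihood test. In GC B cells 0 of 10 changed (0.0612% of 13070 genes did), in non-GC B cells 0 of 10 (0.0537% of 13038 genes), in TFH cells 0 of 10 (0.511% of 13495 genes) and in non-TFH cells 0 of 8 (0.114% of 13199 genes), where Pax5 and Ebf1 had too few counts to be tested. At an unadjusted p under 0.05 there were 0, 2, 5 and 2 genes, respectively. The share of all genes at that limit is not given here, so these counts cannot be read as a result about the 10. DESeq2 called Mef2c in TFH cells (-2.32, adjusted p = 0.0428) and no other of the 10.

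**Figure D5:**
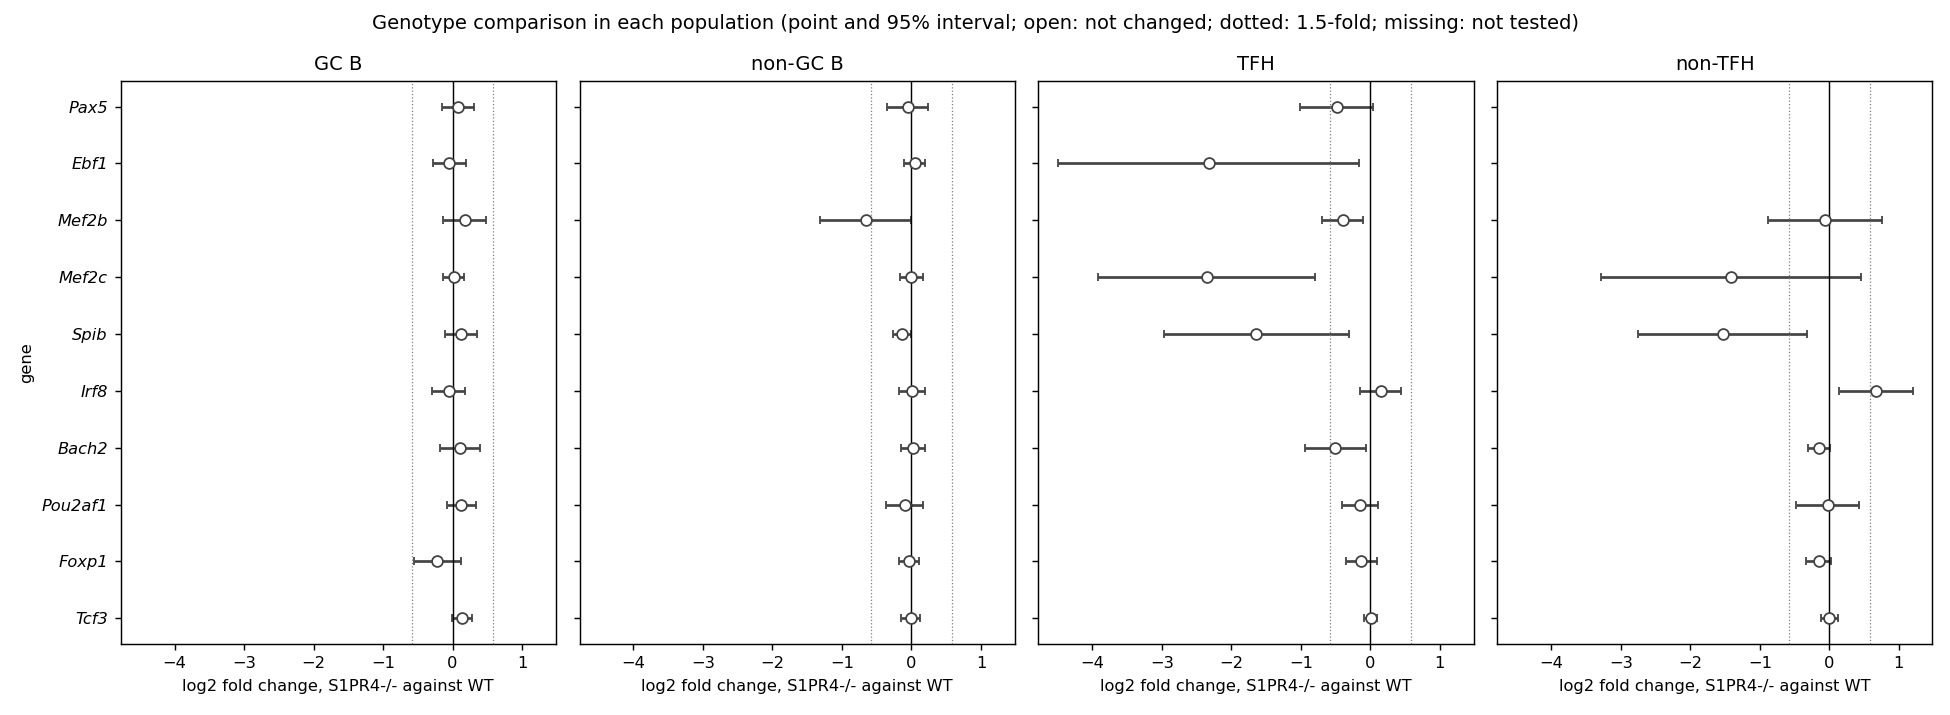
Log2 fold change with 95% confidence interval of each gene in S1PR4-/- over WT samples, in 4 panels for GC B, non-GC B, TFH and non-TFH cells. In GC B cells the points sit within 0.22 of 0, while in TFH cells Mef2c, Ebf1 and Spib lie between -2.35 and -1.64 with wide intervals.

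In GC B cells the differences were small and well bounded. They ranged from -0.22 for Foxp1 (95% confidence interval -0.56 to 0.12) to 0.17 for Mef2b (interval -0.14 to 0.48), and Pax5 differed by 0.08 (interval -0.15 to 0.31). The S1PR4-/- and WT ranges overlapped for all 10. In non-GC B cells Mef2b had the largest difference, -0.66 (interval -1.31 to -0.01, adjusted p = 0.981), between 3.04 to 9.47 CPM in 4 S1PR4-/- samples and 7.25 to 11.6 CPM in 5 WT samples, and the other 9 lay between -0.14 for Spib and 0.05 for Ebf1. The interaction of genotype with B cell population passed for 0 of the 10 (0.0% of 14490 genes passed), with Mef2b at 0.84 ± 0.32 (adjusted p = 0.993).

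In TFH cells Mef2c, Ebf1 and Spib had the largest genotype differences of the 10. Mef2c was at 0.288 to 6.79 CPM (median 0.717) in S1PR4-/- and 1.73 to 17.9 CPM (median 9.72) in WT samples, a log2 fold change of -2.35 ± 0.73 (adjusted p = 0.1003). Ebf1 differed by -2.33 ± 1.01 (adjusted p = 0.228) and Spib by -1.64 ± 0.62 (adjusted p = 0.170). The ranges of the genotypes overlapped for all 3: S1PR4-/- replicate 3 lay inside the WT range for each, and replicate 6 for Mef2c and Spib. Without replicate 3, Mef2c (-3.44, adjusted p = 0.0264) and Ebf1 (-4.39, adjusted p = 0.0312) passed. In a fit of all 8 groups together Mef2c (-2.41, adjusted p = 0.00641), Ebf1 (-2.43, adjusted p = 0.0210) and Spib (-1.67, adjusted p = 0.0228) passed. With the marker score as a covariate the values were -0.69 for Mef2c (adjusted p = 0.504), -0.11 for Ebf1 (adjusted p = 0.972) and 0.12 for Spib (adjusted p = 0.952). The score itself was 2.20 to 5.64 in WT TFH samples and -0.02 to 2.08 in S1PR4-/- TFH samples other than replicate 3 (4.62). Genotype and score therefore cannot be well separated in that fit.

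Mef2b (-0.40 ± 0.14, adjusted p = 0.128), Bach2 (-0.50 ± 0.21, adjusted p = 0.204) and Pax5 (-0.49 ± 0.24, adjusted p = 0.292) differed in S1PR4-/- TFH cells by values that did not pass, and Pou2af1, Foxp1, Irf8 and Tcf3 lay between -0.14 and 0.15. In non-TFH cells Irf8 differed by 0.67 ± 0.25 (adjusted p = 0.317), between 21.5 to 50.8 CPM in S1PR4-/- and 12.5 to 31.6 CPM in WT samples, and Spib by -1.53 ± 0.57 (adjusted p = 0.325). The interaction of genotype and population passed for 0 of 10 genes in T cells (0.0139% of 14402 genes passed), and none of the 10 reached an unadjusted p under 0.05 there.

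Partners and targets of these factors were taken from lists. Of 25 partners, 2 were higher (24.8% of all genes) and 10 lower (23.1% of all genes) in WT GC B than in non-GC B cells, 12 of 25 in all against 47.8% of all genes (median -0.24, against 0.002 for all genes). Id2, an inhibitor that sequesters E proteins, was higher by 2.53 ± 0.31 (adjusted p = 1.34e-05), and Ikzf3 (Aiolos) by 0.70 ± 0.08 (adjusted p = 4.83e-06). Lmo2 (-1.31 ± 0.12) and the small Maf protein gene Mafk (-1.20 ± 0.14), whose product pairs with Bach2, were lower. In WT TFH cells 11 of 25 were higher (22.8% of all genes), led by Bcl11a (4.02 ± 0.68, and 2.14 with the B cell marker score as a covariate) and Spi1 (2.84 ± 0.42, and 2.38 with it), and 5 lower (20.4% of all genes), led by Foxo1 (-1.09 ± 0.06) and Mef2d (-1.03 ± 0.08). No partner passed between genotypes in any population.

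Of 14 genes known to be activated by these factors, 10 were lower in WT GC B cells (23.1% of all genes were). Another 1 was higher (24.8% of all genes were), its value not reported here, and 3 did not change (median of the 14 -0.79). The lower genes were led by the low-affinity IgE receptor gene Fcer2a (-1.72 ± 0.14) and the adaptor gene Bank1 (-1.41 ± 0.15). In WT TFH cells 11 of 13 tested were higher (22.8% of all genes), led by Cd22 (4.46 ± 0.24) and Blnk (3.53 ± 0.56), and Cd72 was lower (-1.54 ± 0.18). Several of these genes are also among the B cell markers above. Between genotypes 1 gene passed, Blnk in TFH cells (-2.99 ± 0.62, adjusted p = 0.0394), at 0.414 to 6.01 CPM in S1PR4-/- and 2.74 to 29.0 CPM in WT samples, and it did not pass with the marker score as a covariate (-1.93, adjusted p = 0.161), without the 4 samples of high score (-3.50, adjusted p = 0.131), with a replicate block (-3.14, adjusted p = 0.0723), with limma voom (-3.34, adjusted p = 0.0548) or without WT replicate 1, 2, 3 or 5 or S1PR4-/- replicate 1, 4, 5 or 6 (adjusted p = 0.0556 to 0.0930).

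Among 6 genes that Pax5 represses, 3 were higher in WT GC B cells (24.8% of all genes), Cd28 (4.42 ± 0.61), Flt3 (4.42 ± 0.41) and Csf1r, and Grap2 was lower (-1.997 ± 0.21). Cd28 is also a T cell marker and Csf1r and Flt3 are myeloid and dendritic cell markers, whose summed levels were 133 to 169 CPM (10 T cell markers) and 215 to 441 CPM (10 myeloid markers) in WT GC B against 85.5 to 130 CPM and 142 to 231 CPM in WT non-GC B cells. Their part in these differences was not tested. All 3 genes listed as repressed by Bach2 were higher in WT GC B cells (24.8% of all genes): Hmox1 (4.08 ± 0.74), Prdm1 (3.88 ± 0.61), which drives plasma cell differentiation, and Xbp1. The 8 plasma cell markers, of which Prdm1 and Xbp1 are 2, summed to 4043 to 8885 CPM in WT GC B and 513 to 861 CPM in WT non-GC B cells, while Bach2 itself differed by 0.11. In WT TFH cells, where Bach2 was 12.2-fold lower, Hmox1 (4.00 ± 0.15) and Xbp1 (1.01 ± 0.15) were higher (22.8% of all genes), and Prdm1 did not pass.

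Finally, the genes whose log2 CPM was most like that of each factor over the 45 samples were taken from 12026 genes with a mean of at least 1 CPM. The samples come from 8 groups, so these coefficients describe mostly the differences between populations. Pax5 was closest to Cd22 (Pearson's r = 0.983) and Cybb (0.983), Ebf1 to Fcmr (0.988) and Ly6d (0.987), Mef2c to Fcrla (0.990) and Blk (0.989), and Spib to Tnfrsf13c (0.989) and Lat2 (0.988). Irf8 was closest to Irf5 (0.992) and Pik3ap1 (0.991), Pou2af1 to Sypl (0.989) and Ccdc50 (0.988), Tcf3 to Rufy3 (0.988) and Blvrb (0.986), Bach2 to Otud1 (0.985) and Mtss1 (0.972), Foxp1 to Fam69a (0.979) and Mylip (0.975), and Mef2b to Nap1l1 (0.977) and Endou (0.973).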

How the data were processed

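RNA-sequencing libraries of 45 sorted populations were used, all in the 8 groups given by their labels. The authors deposited expected counts per gene from RSEM 1.3.0, after trimming with cutadapt 2.10, alignment with STAR 2.5.3 to mm10 and duplicate marking with Picard, and the values were not scaled for depth or length. Tools and versions are those of the submitters' processing notes and the study's methods, which name another GENCODE release than the one used here. Of these values, 8.83% were not whole and were rounded for the fits. Per the labels and the study's methods, polyA RNA was captured on oligo-dT beads before a stranded total RNA library kit. Symbols matched GENCODE M21 for 55423 of 55450 genes, so positions and exonic lengths are from M21 on mm10.

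Genes were filtered with filterByExpr, normalized by TMM and compared by edgeR's quasi-likelihood test (edgeR 4.0.16, R 4.3.3), with Benjamini-Hochberg adjustment over all genes tested. The study's methods name DESeq2 in iDEP with pairwise contrasts. A gene was counted as changed beyond 1.5-fold at an FDR below 0.05, and interactions were called by FDR alone. Standard errors were derived from the F statistic, and log2 CPM used a prior count of 2. Levels are CPM on TMM-scaled library sizes over all 45 samples. Alternatives were total counts, DESeq2 size factors, no low-count filter, DESeq2 1.42.0, limma 3.58.1 (voom), all 8 groups in 1 fit, a replicate block, the B cell marker score as a covariate and leaving out samples. The fits were tested on simulated data. The named genes are the 10 factors, the 2 most changed genes per list and direction, and the 2 most similar genes per factor. The factors and lists were chosen with earlier results of these data known. Protein sequences were not used here. Values of single genes that are withheld are not reported here.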

Additional observations from a re-analysis of the deposited data

Results flagged for a closer look

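Of 80 sets of a gene and a group, 4 had a sample that stood apart from the others of its group by Dixon's test, and chance flags about 1 in 20 sets, or 4 of 80. In TFH cells, S1PR4-/- replicate 3 had 3.27 CPM of Ebf1 against 0 to 0.266 CPM in the other 5 samples, and 6.79 CPM of Mef2c against 0.288 to 2.22 CPM. In non-TFH cells, WT replicate 6 had 1.39 CPM of Ebf1 against 0.233 to 0.488 CPM. That library also had the highest B cell marker score of the non-TFH samples, 3.02. In non-GC B cells, WT replicate 4 had the lowest Foxp1 level, 442 CPM against 516 to 538 CPM.

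The shift between a GC population and its non-GC counterpart differed between B and T cells of WT mice, by the interaction term of edgeR's quasi-likelihood test, for 8 genes. The difference was -5.91 for Pax5, -4.13 for Ebf1, -3.97 for Mef2c, -2.79 for Spib, -2.27 for Pou2af1, -2.08 for Irf8, 3.66 for Bach2 and 0.64 for Tcf3 on the log2 scale.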

How the results depend on the processing

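Counts of the 10 factors that changed stayed within 1.5 times of the reported value in 219 of 222 alternative fits. The 3 exceptions were all between genotypes in TFH cells, where the count was 0 and became 1 with DESeq2, 3 with all 8 groups in 1 fit, and 0 to 2 when each sample was left out in turn (2 without S1PR4-/- replicate 3). In WT GC B over non-GC B cells the count of 6 was 4 to 6 with samples left out, and in S1PR4-/- TFH over non-TFH cells the count of 8 was 7 to 8 (7 without TFH replicate 3). Counts over all genes moved by more for genotype. In GC B cells 8 genes became 14 with DESeq2. In non-GC B cells 7 became 16 with DESeq2 and 25 with all 8 groups. In TFH cells 69 became 184, 149, 9 with the B cell marker score as a covariate, 13 without the 4 TFH samples of high score and 15 to 117 with samples left out in turn (15 without WT replicate 2 or 5 or S1PR4-/- replicate 1, 19 to 44 without WT replicate 3 or S1PR4-/- replicate 4, 5 or 6, 116 without WT replicate 6 and 117 without S1PR4-/- replicate 3). In non-TFH cells 15 became 56 with DESeq2, 9 with the covariate and 11 to 27 with samples left out (27 without WT replicate 6). The interaction count was 0 in B cells and became 6 with DESeq2, 5 with all 8 groups and 0 to 1 with samples left out. In T cells 2 became 76 with DESeq2 and 1 with total counts or limma.

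Directions reversed for differences near 0 and with the marker score. Irf8 in WT GC B over non-GC B cells was -0.049 with total counts and -0.020 with all 8 groups. In S1PR4-/- mice Spib was -0.070 and -0.019 in those fits and -0.034 to 0.076 with samples left out, and Irf8 was 0.0020 with DESeq2 or its size factors, 0.017 without the filter and -0.081 to 0.053 with samples left out. Between genotypes in TFH cells the covariate gave 0.12 for Spib, 0.11 for Pou2af1 and 0.061 for Foxp1, and Tcf3 was -0.0010 without the 4 samples of high score and -0.013 to 0.014 with samples left out. The covariate gave -0.26 for Ebf1 in WT TFH over non-TFH cells and 1.299 for Mef2c between genotypes in non-TFH cells. The lineage difference of Mef2b was 0.025 without WT TFH replicates 1 to 3. The cause was not tested. Leaving out the samples of high marker score, and leaving out each sample of S1PR4-/- TFH over non-TFH cells and of the non-TFH genotype comparison, were chosen after seeing the data.

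Replicate numbers are shared by groups, but no source says that they mark the same mouse. Correlations of same-numbered deviations were not all over 0.1 in any comparison. They were highest in S1PR4-/- TFH and non-TFH cells (mean 0.114, lowest 0.0863), where 6 of 6 matched best with their own number. In WT mice 4 of 6 did so between the T cell sorts and 4 of 5 between the B cell sorts. Between the S1PR4-/- B cell sorts it was 0 of 4, and between genotypes 0 to 2. Whether sorts of 1 lineage and genotype shared mice was therefore not settled by this check. The numbers were not treated as pairs because no source pairs them and not every correlation passed 0.1. The main tests therefore leave out any mouse or batch that the sorts may have shared. With a replicate block the genotype count over all genes in TFH cells was 46, the interaction count in T cells was 10, and Irf8 in WT GC B cells (-0.0034) and Spib in S1PR4-/- GC B cells (-0.075) changed sign. Blnk lost its call between genotypes in TFH cells (-3.14, adjusted p = 0.0723). The count of factors that changed was the same with and without the block in every comparison.

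In S1PR4-/- non-TFH cells, libraries had 0 to 4 expected counts of Ebf1 and 0 to 5 of Pax5, and neither gene entered the genotype test there.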
